A study of Mus musculus with 12 samples.

Results

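The genes of glycolysis and of the response to low oxygen were followed through mouse CD4+ T cells of the tumour and the spleen. The set holds 40 genes, taken by symbol from the 24062 genes of the count table with no threshold on their values, and all 40 were found. They comprise 4 glucose and lactate transporters, 11 genes of upper glycolysis, 6 of lower glycolysis, 3 that decide the fate of pyruvate, 7 of the oxygen-sensing machinery and 9 other hypoxia-responsive genes. Of these, 39 had enough counts to be tested, and Eno1 did not.

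Messenger RNA was sequenced from 12 libraries of sorted C57BL/6 CD4+ T cells, in 6 groups of 2. Treg (regulatory T cells) were the GFP-positive and Tconv (conventional T cells) the GFP-negative cells, and both were taken from the tumour of tumour-bearing (TB) mice, from the spleen of TB mice and from the spleen of normal mice. TB mice had received 500000 TC-1 cells through the tail vein 3 weeks before, and normal mice carry no such label. TC-1 is a mouse line of lung epithelial cells transformed with papillomavirus oncogenes and ras. The gene that drives GFP, and the age and sex of the mice, are not given in the sources used here. All libraries were made the same way, and none came from the organ of the tumour in a normal mouse, so tumour and organ cannot be told apart. Whether the 2 replicates of a group were separate mice is not in the labels, and p values therefore reflect only how far these libraries spread, which may be technical.

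Glycolysis splits glucose into pyruvate, which is either reduced to lactate by lactate dehydrogenase and exported, or passed into mitochondria. When oxygen is low, the prolyl hydroxylases (Egln genes) no longer mark the hypoxia-inducible factors HIF-1α (Hif1a) and HIF-2α (Epas1) for destruction through the von Hippel-Lindau protein, and the factors join ARNT to switch on glucose transporters, glycolytic enzymes, Pdk1, Vegfa and other targets. Hif1a is controlled mostly through its protein, which RNA does not measure. In activated effector T cells glycolysis is known to be strongly induced, and in Treg Foxp3 is known to restrain it.

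Total counts ran from 18624132 to 24111546 per library. Foxp3, the transcription factor of Treg, had 23413 to 28528 counts in the 6 Treg libraries and 253 to 412 in the 6 Tconv libraries. Cd4 and Cd3e, which define the sorted cells, were high throughout, with 22109 to 32473 and 11867 to 21854 counts. Markers of other cell types were present in tumour libraries. A list of 9 fibroblast genes summed to 550.1 and 559.9 CPM (counts scaled to library size) in tumour Treg. The sums were 291 and 736 CPM in tumour Tconv, against 0.191 to 5.61 CPM in the 8 spleen libraries, and its 8 tested genes were higher in tumour than in TB spleen in both cell types. The 13 macrophage and monocyte genes summed to 304 and 416 CPM in tumour Treg, with 197 and 490.5 CPM in tumour Tconv, against 7.95 to 22.3 CPM in spleen. Against TB spleen, 13 of 13 were higher in tumour Treg and 12 of 13 in tumour Tconv. The 12 genes of lung and tumour epithelium summed to 171 and 118 CPM in tumour Treg, with 92.5 and 107 CPM in tumour Tconv, against 2.86 to 28.4 CPM in spleen, with 10 of 11 tested genes higher in both. None of the fibroblast, macrophage or epithelial genes was at 0 in a tumour library, while the spleen libraries lacked 3 to 8, 0 to 7 and 7 to 9 of them. The 7 endothelial genes summed to 106 and 128 CPM in tumour Treg, with 255 and 258 CPM in tumour Tconv, against 198 to 329 CPM in spleen. Of 4 tested endothelial genes, 2 were higher and 1 lower in tumour Treg than in TB spleen Treg, with 3 and 1 in the comparison of Tconv. Among the 7, Cdh5, which defines endothelium, had 66 and 135 counts in tumour Treg, with 14 and 140 in tumour Tconv, against 1 to 16 in spleen. Lists for neutrophils, dendritic, B, CD8 T, NK and erythroid cells held at most 0.00978% of the counts of any library. Of their tested genes, 3 of 5 dendritic, 2 of 5 neutrophil and 2 of 2 CD8 T genes were higher in tumour Treg than in TB spleen Treg. The 2 tested NK genes were lower there. The comparison of Tconv had 2 of 5 dendritic and 5 of 5 neutrophil genes higher, with 1 of 2 NK and 1 of 2 B cell genes lower. No other tested gene of these lists was counted as higher or lower. Among all tested genes, the Treg comparison had 32.8% higher and 28.7% lower. For the Tconv comparison these shares were 26.4% and 22.8%. The part of these cell types in the results below was not tested. In such bulk samples fewer cells of a type and less RNA per cell cannot be told apart.

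Hypoxia-inducible factors bind DNA at a short core, and its letters, ACGTG and GCGTG, were looked up on both strands in the 250 bases before the RefSeq starts of the members. A site on the other strand reads CACGT or CACGC, and the palindrome CACGTG holds a match on each strand. Windows were matched for 36 of the 40 genes, some with several starts, and 32 of the 36 held a match; Slc2a3, Bnip3l, Ndrg1 and Epas1 were not matched. Of the 51 windows of members, 80.4% held either core and 49% held ACGTG, against 38.6% and 16.6% of all 32851 promoter windows. The members were chosen as genes of glycolysis and of the response to low oxygen. Windows were not matched for base composition, and the difference was not tested. A match is a run of letters and not a bound site. The windows of 6 genes, picked by their changes in expression, are printed, and no result below rests on the matches. Slc16a3, Hk2, Egln3 and Ddit4 were taken for their changes in the tumour. Ldha and Ldhb were taken as paralogs that moved in opposite directions in Treg. Sequences are from RefSeq on GRCm38.p6, 5′ to 3′ on the strand of the gene, with matches in capitals.
Slc16a3, chr11:120948817-120949066, plus strand: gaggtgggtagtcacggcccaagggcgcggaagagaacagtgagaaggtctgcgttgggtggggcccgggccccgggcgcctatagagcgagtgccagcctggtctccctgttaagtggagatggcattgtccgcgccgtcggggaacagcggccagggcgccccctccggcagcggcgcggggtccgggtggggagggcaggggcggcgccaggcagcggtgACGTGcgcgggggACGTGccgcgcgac
Hk2, chr6:82774455-82774704, minus strand: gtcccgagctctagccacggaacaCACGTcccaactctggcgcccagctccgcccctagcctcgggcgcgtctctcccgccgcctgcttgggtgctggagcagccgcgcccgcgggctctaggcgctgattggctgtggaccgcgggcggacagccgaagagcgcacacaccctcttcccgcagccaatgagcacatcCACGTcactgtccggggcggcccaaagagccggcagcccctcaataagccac
Ldha, upstream start, chr7:46845554-46845803, plus strand: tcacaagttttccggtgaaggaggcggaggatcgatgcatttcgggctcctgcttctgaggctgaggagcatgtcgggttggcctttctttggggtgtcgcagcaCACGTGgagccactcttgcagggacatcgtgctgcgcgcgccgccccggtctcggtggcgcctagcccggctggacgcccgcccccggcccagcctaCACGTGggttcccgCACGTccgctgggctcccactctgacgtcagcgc
Ldha, downstream start, chr7:46846832-46847081, plus strand: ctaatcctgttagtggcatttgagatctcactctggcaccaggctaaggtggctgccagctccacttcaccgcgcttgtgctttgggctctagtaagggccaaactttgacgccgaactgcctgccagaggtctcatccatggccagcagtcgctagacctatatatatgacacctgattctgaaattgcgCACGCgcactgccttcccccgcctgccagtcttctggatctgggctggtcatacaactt
Ldhb, chr6:142507958-142508207, minus strand: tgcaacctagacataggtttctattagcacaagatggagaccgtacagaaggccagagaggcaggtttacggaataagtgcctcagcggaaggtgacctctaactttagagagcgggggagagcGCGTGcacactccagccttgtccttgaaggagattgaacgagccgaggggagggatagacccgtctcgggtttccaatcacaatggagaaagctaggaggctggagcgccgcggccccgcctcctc
Egln3, chr12:54203875-54204124, minus strand: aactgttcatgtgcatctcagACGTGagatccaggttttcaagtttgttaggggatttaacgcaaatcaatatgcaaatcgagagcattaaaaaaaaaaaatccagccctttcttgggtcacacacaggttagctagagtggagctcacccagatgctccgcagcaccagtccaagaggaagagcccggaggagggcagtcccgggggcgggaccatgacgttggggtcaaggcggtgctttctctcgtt
Ddit4, chr10:59951771-59952020, minus strand: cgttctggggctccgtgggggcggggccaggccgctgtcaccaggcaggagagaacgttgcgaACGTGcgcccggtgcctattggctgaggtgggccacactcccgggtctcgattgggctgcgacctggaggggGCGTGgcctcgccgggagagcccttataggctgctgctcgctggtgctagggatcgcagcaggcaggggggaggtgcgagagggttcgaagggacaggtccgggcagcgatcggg
The upstream window of Ldha holds 5 matches, all ACGTG or its complement, and 2 of the palindromes. The downstream window of Ldha holds 1 match and no ACGTG, the same as the window of Ldhb. Hk2 and Slc16a3 hold 2 ACGTG matches each, Egln3 and Ddit4 1 each.

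How well the counts can represent each member may depend in part on how much of its transcript is shared with other genes. For Gapdh, the glyceraldehyde phosphate dehydrogenase, 80.3% of the 75-base stretches of the principal transcript also occur in transcripts of 121 other genes, 114 of them annotated pseudogenes. Gapdh held only 31 to 186 counts per library, and the enolase Eno1, with 65.4% shared, held 1 count in each tumour Treg library and 0 in the other 10. The shared part was also above 40% for Pgk1 (67.5%), Bnip3 (46.2%) and Pgam1 (40.6%). Per kilobase of exon, and averaged over the 12 libraries, these 5 genes lay between 0.0013 and 3.00 CPM per kb. Tpi1, Aldoa, Pkm and Ldha, enzymes of the same chain, lay at 28.1, 150, 138 and 162 CPM per kb, with 2.48%, 1.53%, 19.6% and 5.38% shared. Members with little shared sequence also lay below 3.00 CPM per kb. With 0% shared these were Aldoc (2.36), Pfkfb4 (1.64), Hk2 (1.501), Vegfa (1.18), the other enolase Eno2 (0.645) and P4ha2 (0.167). Ankrd37 lay at 2.17 with 4.92% shared. A low level alone therefore does not mark a member as undercounted, and the part of shared sequence was not tested. The length of the reads and the handling of reads with several matches were not stated in what was available here, and values of the 5 genes are uncertain. Without them, 18 of 35 tested members were higher and 5 lower in tumour Treg than in TB spleen Treg. Of all tested genes 32.8% and 28.7% were. In the comparison of Tconv 13 of 35 were higher and 5 lower, against 26.4% and 22.8% of all tested genes.

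**Figure D1:**
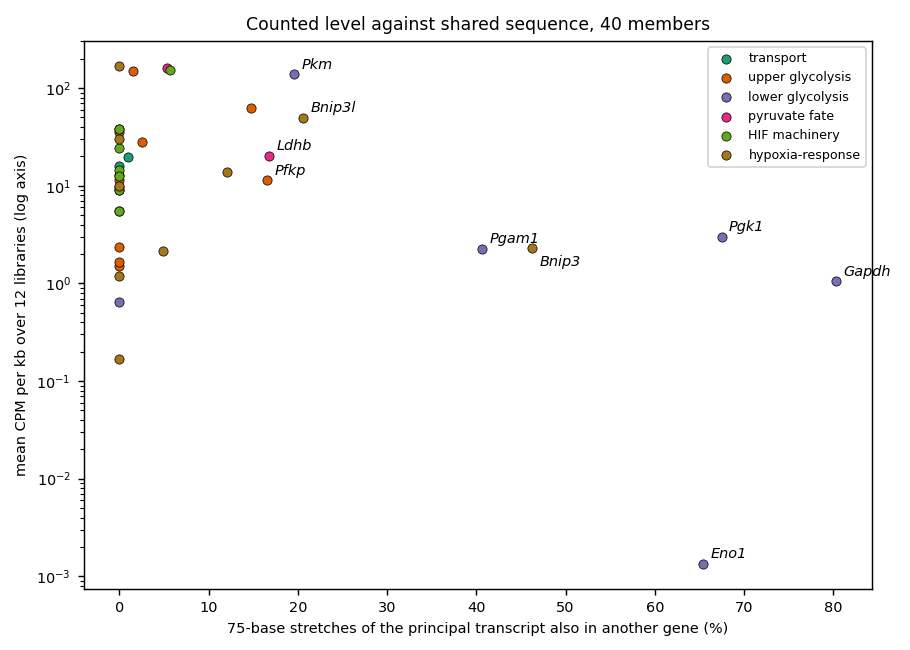
Mean counted level per kilobase of exon over the 12 libraries (log axis) against the share of each principal transcript's 75-base stretches that occur in another gene, 1 point per member, coloured by role. Eno1, Gapdh, Pgk1, Bnip3 and Pgam1 lie right of 40% and at or below 3.00 CPM per kb, while Pkm, with 19.6% shared, lies at 138. Aldoc, Pfkfb4, Hk2, Vegfa, Eno2 and P4ha2, with 0% shared, also lie below 3.00.

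The comparison of tumour Treg with TB spleen Treg asked how the genes differ in Treg of the tumour. The hypoxia-responsive genes Vegfa, P4ha2 and Ndrg1, the oxygen sensor Egln3 and the lactate exporter Slc16a3 rose most, and Pdk1, Pfkfb4 and Ldhb fell most. Of the 39 tested members, 21 were higher and 5 lower (53.8% and 12.8%), where 32.8% and 28.7% of all 13509 tested genes were called higher and lower, 61.4% in all. Called means a Benjamini-Hochberg adjusted p under 0.05 over all tested genes in edgeR's quasi-likelihood test. Of the called genes, 53.3% were higher with TMM scaling and 39.9% with library-size scaling, which moved the median of all genes by -0.16. The median log2 fold change was 0.29 over the members and 0.02 over all tested genes. Between tumour Tconv and TB spleen Tconv, 14 members were higher and 5 lower (35.9% and 12.8%, background 26.4% and 22.8%, 49.1% in all), with medians of 0.13 and 0.00. There 53.7% of called genes were higher with TMM and 41.5% with library-size scaling (shift -0.11). The members higher in both cell types were 13 (33.3%, against 20.2% of all tested genes), those lower in both 2 (5.13%, against 14.5%), and 9 were called in neither. A further 8 were called higher in Treg alone, 1 higher in Tconv alone, and 3 lower in each alone. Whether the change differed between the cell types was tested directly as an interaction, the change in Treg minus the change in Tconv: it was positive for 10 members and negative for 4 (25.6% and 10.3%, background 11.7% and 13.1%, 24.7% in all). The members higher under the interaction numbered 5 when only the libraries compared were fitted (12.8%, against 7.03% of all genes).

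**Figure D2:**
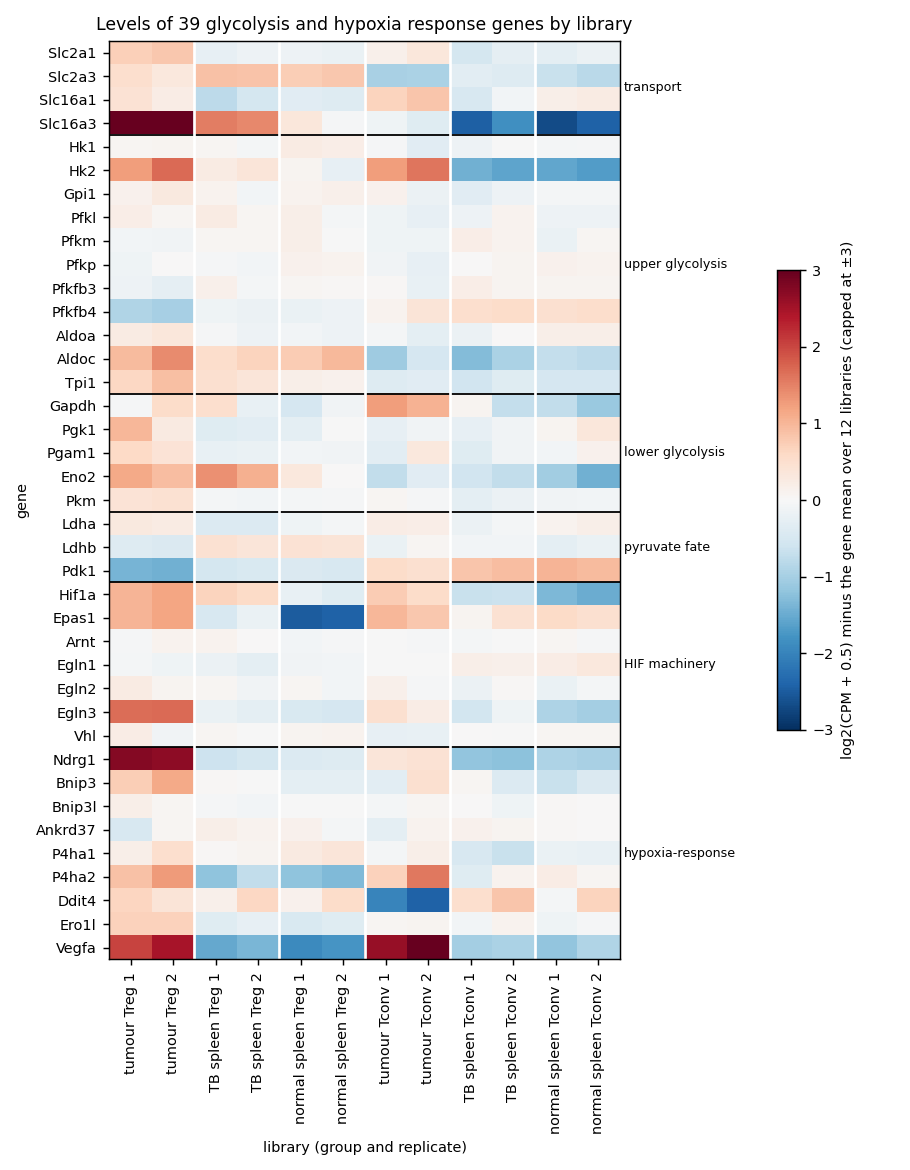
Level of each tested member in each of the 12 libraries, as log2(CPM + 0.5) minus the gene's mean over all libraries, with genes in rows grouped by role and libraries in columns, Treg left of Tconv and tumour left of spleen. Ndrg1, Slc16a3 and Egln3 are highest in the 2 tumour Treg libraries, Ddit4 is lowest in the 2 tumour Tconv libraries, and Epas1 is lowest in the 2 normal spleen Treg libraries.

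**Figure D3:**
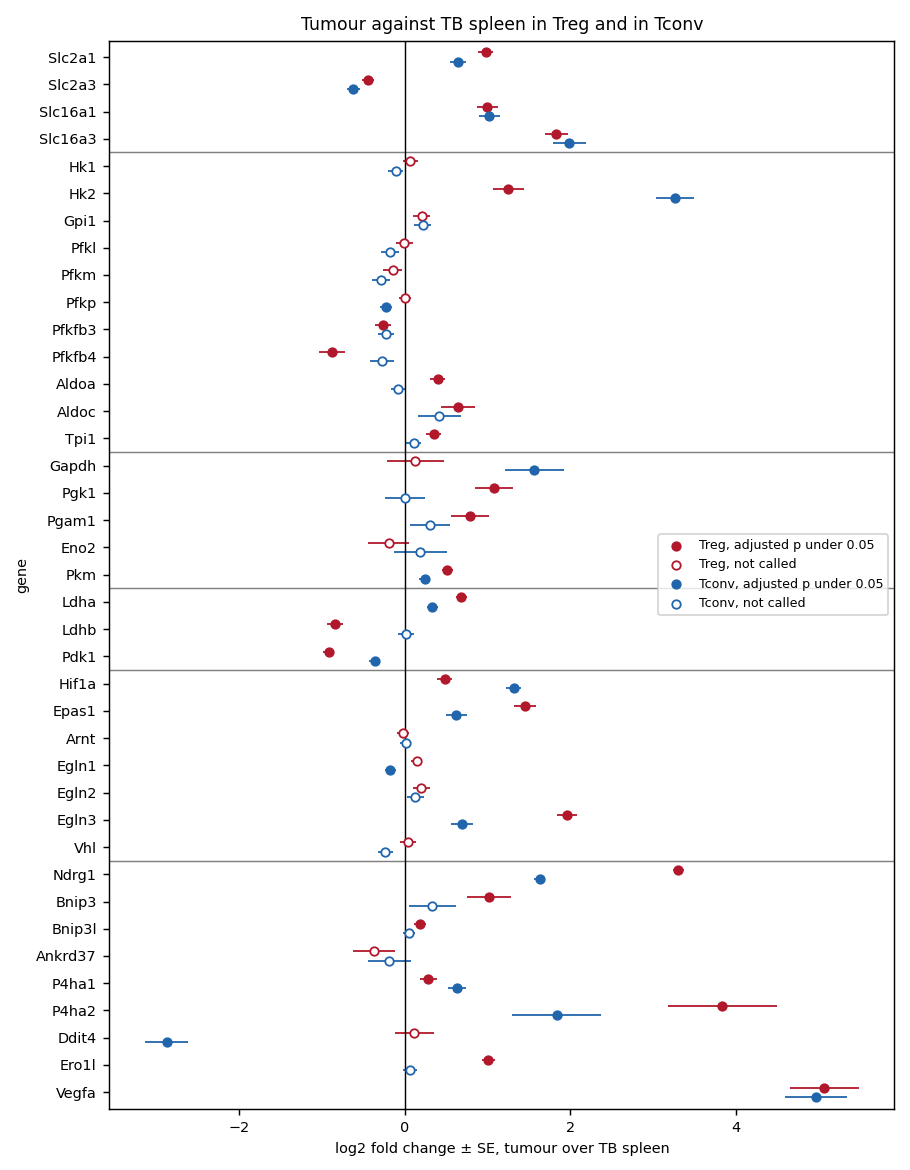
Log2 fold change ± SE of tumour over TB spleen for each tested member, Treg in red above Tconv in blue, filled where the adjusted p was under 0.05. Vegfa lies near 5 in both cell types, Hk2 at 1.25 in Treg and 3.26 in Tconv, and Ddit4 at 0.11 in Treg and -2.88 in Tconv.

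Among the 4 transporters, Slc2a1, Slc16a1 and Slc16a3 rose and Slc2a3 fell in the tumour, in both cell types. Slc2a1 encodes GLUT1, the glucose transporter of activated T cells (chromosome 4, 119108711 to 119137983, mm10). Its level was 110 and 118 CPM in tumour Treg, against 55.9 and 60.2 in TB spleen Treg and 60.5 and 57.8 in normal spleen Treg. In Tconv it was 74.3 and 84.9 CPM in tumour, against 46.1 and 55.8 in TB spleen and 55.0 and 59.3 in normal spleen. Tumour libraries lay above all spleen libraries in both cell types, and the change was 0.97 ± 0.10 in Treg (adjusted p = 3.71e-06) and 0.64 ± 0.10 in Tconv (adjusted p = 0.000175). Slc2a3, which encodes the high-affinity transporter GLUT3, changed in the opposite direction, with 146 and 129 CPM in tumour Treg, against 189 and 185 in TB spleen Treg and 173 and 180 in normal spleen Treg. Tconv held 51.9 and 52.5 CPM in tumour, against 82.8 and 78.1 in TB spleen and 63.9 and 58.5 in normal spleen. It fell by 0.45 ± 0.07 in tumour Treg and by 0.62 ± 0.08 in tumour Tconv, and Treg libraries were above Tconv libraries at every site without overlap.

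Slc16a3 encodes MCT4, the lactate exporter of glycolytic cells (chromosome 11, 120948480 to 120960868). It had 203 and 175 CPM in tumour Treg, against 54.9 and 51.5 in TB spleen Treg and 24.0 and 18.3 in normal spleen Treg. Tumour Tconv held 17.2 and 14.5 CPM, against 3.02 and 4.85 in TB spleen Tconv and 2.50 and 3.10 in normal spleen Tconv. The 6 groups kept apart except the 2 of spleen Tconv, which overlapped. The tumour change was 1.83 ± 0.14 in Treg and 1.99 ± 0.20 in Tconv, and the interaction was not called (-0.16 ± 0.25, adjusted p = 0.697). Slc16a3 was higher in Treg than in Tconv by 3.58 ± 0.16 in tumour, 3.74 ± 0.19 in TB spleen and 2.92 ± 0.21 in normal spleen. Slc16a1, which encodes the lactate carrier MCT1 of many cell types, had 72.5 and 63.0 CPM in tumour Treg, against 30.9 and 37.2 in TB spleen Treg and 42.7 and 41.0 in normal spleen Treg. In Tconv its level was 85.5 and 96.7 CPM in tumour, against 38.7 and 51.1 in TB spleen and 60.9 and 63.7 in normal spleen. It rose by 0.99 ± 0.13 in Treg and by 1.02 ± 0.13 in Tconv, but it was lower in Treg than in Tconv at all 3 sites. That difference was -0.43 ± 0.12 in tumour, not called without tumour Treg 2 (adjusted p = 0.0846), and -0.40 ± 0.13 in TB spleen, not called without TB spleen Treg 1 (-0.28, adjusted p = 0.208) or TB spleen Tconv 2 (-0.19, adjusted p = 0.316).

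In upper glycolysis the inducible hexokinase stood out. Hk2 encodes the hexokinase induced on activation, which traps glucose as its phosphate (chromosome 6, 82725025 to 82774454). It had 15.6 and 21.5 CPM in tumour Treg, against 7.48 and 8.13 in TB spleen Treg and 6.65 and 5.21 in normal spleen Treg. Tumour Tconv held 15.6 and 20.2 CPM, against 1.98 and 1.75 in TB spleen Tconv and 1.78 and 1.62 in normal spleen Tconv. Tumour libraries of both cell types overlapped each other and lay above all spleen libraries. Hk2 rose by 1.25 ± 0.19 in tumour Treg (adjusted p = 0.000117) and by 3.26 ± 0.23 in tumour Tconv (adjusted p = 3.37e-07), and the changes differed (-2.01 ± 0.30, adjusted p = 0.000538). Treg were above Tconv by 2.06 ± 0.23 in TB spleen and 1.80 ± 0.24 in normal spleen, and by 0.05 ± 0.18 in tumour (95% interval -0.39 to 0.49, not called). Hk1, the constitutive hexokinase, lay between 238 and 356 CPM in the 12 libraries and was called in neither tumour comparison. Per kilobase of exon the mean over all libraries was 35.3 CPM per kb for Hk1 and 1.501 for Hk2.

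Of the other upper members, the aldolase Aldoa, which splits fructose bisphosphate, had 510 and 551 CPM in tumour Treg, against 420 and 388 in TB spleen Treg and 408 and 388 in normal spleen Treg. In Tconv it had 417 and 354 CPM in tumour, against 381 and 435 in TB spleen and 491 and 491 in normal spleen. Tumour Treg lay above every other library, and the change was 0.39 ± 0.09 in Treg and -0.08 ± 0.09 in Tconv. The interaction of Aldoa (0.48 ± 0.13, adjusted p = 0.0167) was not called without TB spleen Treg 2 (adjusted p = 0.0665) or TB spleen Tconv 2 (adjusted p = 0.0729). Its paralog Aldoc (2.24 to 17.6 CPM) and the triose phosphate isomerase Tpi1 (48.8 to 136 CPM) were higher in tumour Treg by 0.64 ± 0.21 and 0.35 ± 0.09. The call of Aldoc was lost without tumour Treg 2 (0.38, adjusted p = 0.193), TB spleen Treg 1 (adjusted p = 0.107) or TB spleen Treg 2 (adjusted p = 0.0501) and with library-size scaling (adjusted p = 0.0652), and that of Tpi1 without tumour Treg 2 (0.21, adjusted p = 0.0631), without TB spleen Treg 2 (adjusted p = 0.0561) and under library-size scaling (0.19, adjusted p = 0.0898). Pfkfb4 (3.54 to 11.2 CPM), a bifunctional enzyme that sets the activator of phosphofructokinase, fell by 0.88 ± 0.15 in tumour Treg (adjusted p = 0.000362). Its relative Pfkfb3 (60.7 to 84.3 CPM) was lower by 0.26 ± 0.09 in tumour Treg, not called without tumour Treg 2 (adjusted p = 0.146), without TB spleen Treg 1 (-0.16, adjusted p = 0.258) or with DESeq2 (adjusted p = 0.0728). Pfkp, a phosphofructokinase of 128 to 167 CPM, was lower in tumour Tconv by 0.23 ± 0.07, not called without tumour Tconv 2 (adjusted p = 0.114) or TB spleen Tconv 2 (adjusted p = 0.0917). The isomerase Gpi1 (318 to 490 CPM) and the phosphofructokinases Pfkl (63.7 to 89.2 CPM) and Pfkm (15.9 to 20.9 CPM) were called in neither tumour comparison.

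In lower glycolysis, Pkm, the pyruvate kinase, had 914 and 946 CPM in tumour Treg, against 660 and 644 in TB spleen Treg and 658 and 663 in normal spleen Treg. Tconv held 713 and 662 CPM in tumour, against 561 and 604 in TB spleen and 632 and 644 in normal spleen. Tumour libraries were above those of the spleen in both cell types, by more in Treg. It rose by 0.51 ± 0.06 in Treg (adjusted p = 2.60e-05) and by 0.24 ± 0.06 in Tconv (adjusted p = 0.00821), the second not called without TB spleen Tconv 1 (0.18, adjusted p = 0.0732) or under library-size scaling (0.13, adjusted p = 0.079). The interaction of Pkm was 0.27 ± 0.09 (adjusted p = 0.0436) and was lost in 9 of the 12 fits that left out 1 library (adjusted p up to 0.145, without tumour Tconv 2). Pgk1, the phosphoglycerate kinase, had 13.3 and 7.87 CPM in tumour Treg, against 4.95 and 5.12 in TB spleen Treg and 5.15 and 6.46 in normal spleen Treg. In Tconv Pgk1 had 5.42 and 5.99 CPM in tumour, against 5.42 and 5.97 in TB spleen and 6.83 and 8.30 in normal spleen. The tumour and TB spleen Tconv libraries overlapped, below those of normal spleen. Its change in Treg was 1.07 ± 0.23 (adjusted p = 0.00154). The interaction of 1.07 ± 0.33 was lost without tumour Treg 1 (0.64, adjusted p = 0.147), without tumour Tconv 1 or any TB spleen library (adjusted p = 0.0604 to 0.11), and with only the libraries compared (adjusted p = 0.0706). Gapdh had 3.69 and 5.86 CPM in tumour Treg, with 9.70 and 8.44 in tumour Tconv, against 5.56 and 3.18 in TB spleen Treg, 4.07 and 2.11 in TB spleen Tconv, 2.55 and 3.52 in normal spleen Treg and 2.09 and 1.48 in normal spleen Tconv. The 2 tumour Tconv libraries were above the other 10, and the change was 1.56 ± 0.35 in Tconv (adjusted p = 0.00296) and 0.13 ± 0.34 in Treg. The interaction of Gapdh was not called in the main fit. It was called with DESeq2 (-1.43, adjusted p = 0.0483) and in edgeR with library-size scaling (-1.49, adjusted p = 0.0448). EdgeR also called it with no filter (-1.48, adjusted p = 0.0194) and with a block by title number (-1.42, adjusted p = 0.0468). Pgam1 (3.28 to 6.86 CPM), the phosphoglycerate mutase, was higher in tumour Treg by 0.78 ± 0.23, not called without tumour Treg 1 (adjusted p = 0.0696) or TB spleen Treg 1 (adjusted p = 0.0591). Eno2, the neuronal enolase (0.572 to 6.99 CPM), was called in neither tumour comparison.

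At the fate of pyruvate, both lactate dehydrogenase subunits and Pdk1 changed in tumour Treg. Ldha, the subunit that favours lactate formation (chromosome 7, 46841475 to 46855627), had 646 and 631 CPM in tumour Treg, against 399 and 398 in TB spleen Treg and 484 and 513 in normal spleen Treg. Tconv held 617 and 610.5 CPM in tumour, against 468 and 509.5 in TB spleen and 570.3 and 604 in normal spleen. Tumour libraries were the highest of each cell type, and TB spleen libraries the lowest. Ldha rose by 0.68 ± 0.07 in tumour Treg (adjusted p = 3.25e-06) and by 0.33 ± 0.07 in tumour Tconv (adjusted p = 0.00124). The interaction (0.35 ± 0.09, adjusted p = 0.0157) was not called without TB spleen Treg 1 (adjusted p = 0.0536) or TB spleen Tconv 2 (adjusted p = 0.0609). Ldhb, the subunit that favours pyruvate, had 23.6 and 22.9 CPM in tumour Treg, against 43.1 and 40.3 in TB spleen Treg and 42.1 and 40.6 in normal spleen Treg. In Tconv its level was 27.1 and 32.3 CPM in tumour, against 29.3 and 29.6 in TB spleen and 25.2 and 27.3 in normal spleen. Tumour Treg lay below every other library, whereas the Tconv groups overlapped. It fell by 0.84 ± 0.09 in tumour Treg (adjusted p = 8.71e-06), the change in Tconv was 0.01 ± 0.09, and the difference was -0.86 ± 0.13 (adjusted p = 0.000684). Treg were above Tconv by 0.50 ± 0.09 in TB spleen and 0.66 ± 0.09 in normal spleen, and below by -0.36 ± 0.09 in tumour, which was not called without tumour Tconv 2 (-0.23, adjusted p = 0.0812).

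Pdk1, the kinase that shuts pyruvate out of mitochondria by inactivating pyruvate dehydrogenase (chromosome 2, 71873224 to 71903858), is a classical HIF-1 target, and it fell in the tumour. It had 96.0 and 93.0 CPM in tumour Treg, against 175 and 183 in TB spleen Treg and 187 and 180 in normal spleen Treg. Tumour Tconv held 371 and 352 CPM, against 451 and 481 in TB spleen Tconv and 514 and 493 in normal spleen Tconv. Tumour libraries were below the spleen libraries of their cell type, and all Treg libraries below all Tconv libraries. Its change was -0.92 ± 0.07 in Treg (adjusted p = 2.75e-07) and -0.37 ± 0.06 in Tconv (adjusted p = 0.000499), and the changes differed by -0.56 ± 0.09 (adjusted p = 0.00111). Treg were lower than Tconv by -1.94 ± 0.07 in tumour, -1.38 ± 0.07 in TB spleen and -1.46 ± 0.07 in normal spleen.

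**Figure D4:**
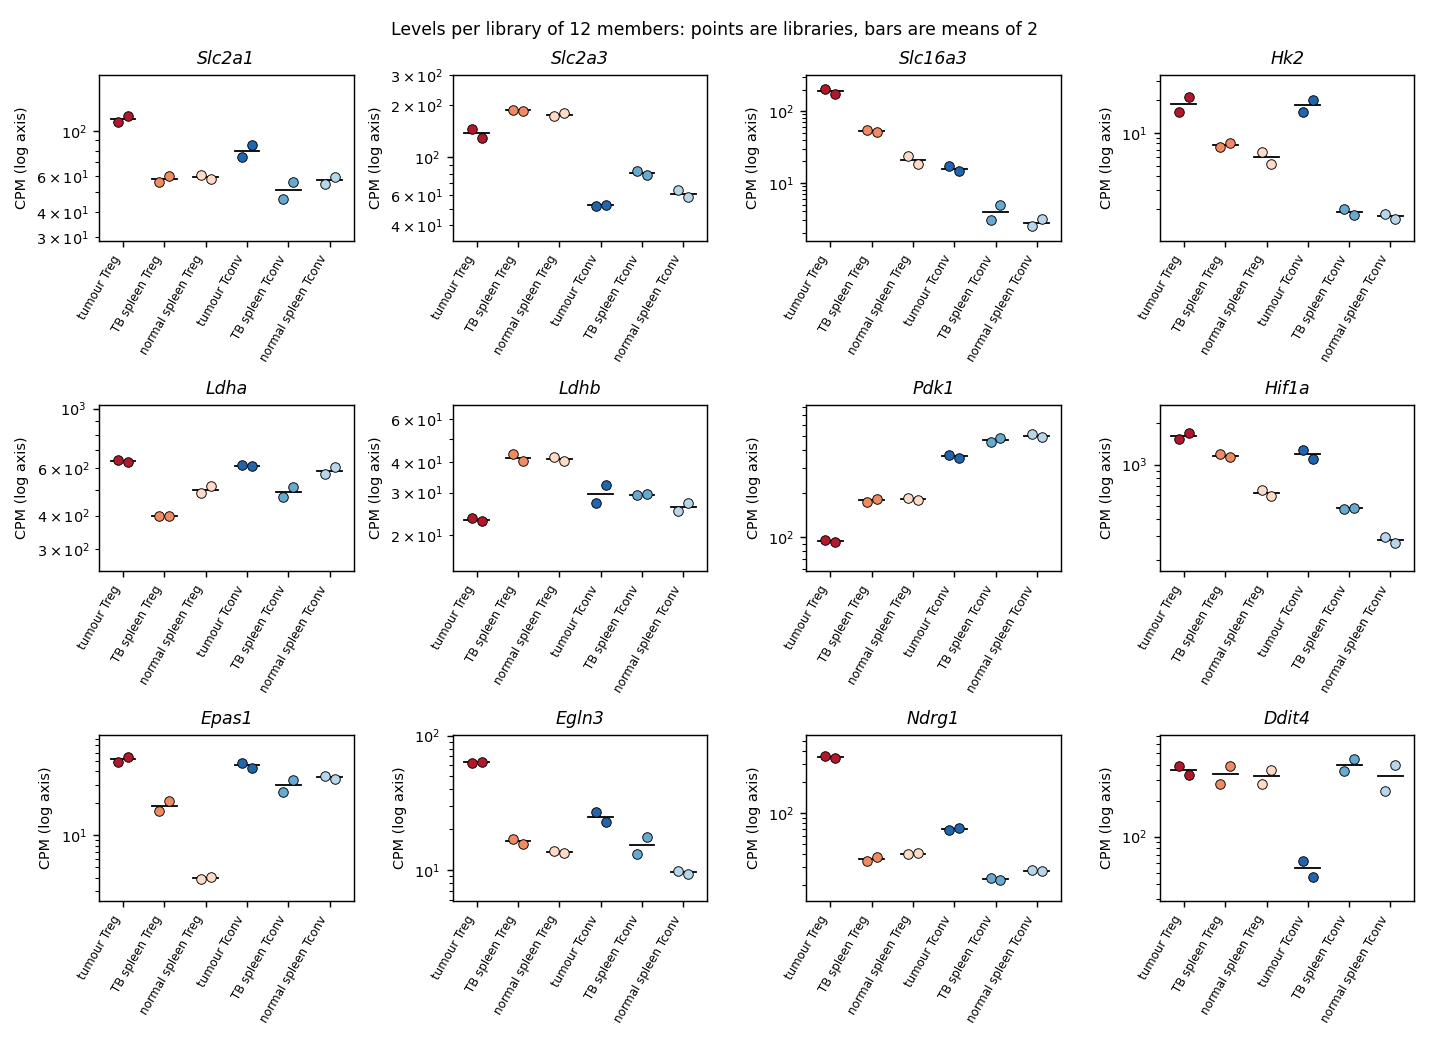
Level per library in CPM (log axis, scaled per gene) of 12 members in the 6 groups, with Treg groups left of Tconv groups and tumour left of TB spleen and normal spleen. Points are libraries and bars are means of 2. Slc16a3 and Ndrg1 are highest in tumour Treg, Hk2 is alike in tumour Treg and tumour Tconv, and Ddit4 is low in tumour Tconv, at 63.0 and 46.0 CPM.

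Of the oxygen-sensing machinery, both alpha subunits and Egln3 were higher in tumour than in TB spleen in both cell types. Egln1 was called lower in Tconv alone, and Arnt, Egln2 and Vhl were called in neither. Hif1a (chromosome 12, 73901375 to 73947530) had 1545 and 1709 CPM in tumour Treg, against 1200 and 1130 in TB spleen Treg and 651 and 586 in normal spleen Treg. In Tconv it had 1288 and 1105 CPM in tumour, against 477 and 483 in TB spleen and 297 and 268 in normal spleen. In both cell types the groups stepped down from tumour to TB spleen to normal spleen without overlap. Tumour was above TB spleen by 0.48 ± 0.09 in Treg (adjusted p = 0.000543) and 1.32 ± 0.09 in Tconv (adjusted p = 3.26e-07), with a difference of -0.83 ± 0.13 (adjusted p = 0.000655). TB spleen was above normal spleen by 0.91 ± 0.09 in Treg and 0.77 ± 0.09 in Tconv. Treg exceeded Tconv by 0.44 ± 0.09 in tumour, 1.28 ± 0.09 in TB spleen and 1.13 ± 0.09 in normal spleen.

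Epas1, the gene of HIF-2α (chromosome 17, 86753700 to 86833410), had 48.9 and 54.8 CPM in tumour Treg, against 16.97 and 20.9 in TB spleen Treg and 3.85 and 4.10 in normal spleen Treg. Tconv held 48.2 and 42.5 CPM in tumour, against 25.6 and 33.2 in TB spleen and 36.2 and 33.9 in normal spleen. The Treg groups were far apart and the spleen Tconv groups close to each other. Epas1 rose in the tumour by 1.46 ± 0.13 in Treg (adjusted p = 1.88e-06) and by 0.62 ± 0.13 in Tconv (adjusted p = 0.00172), and the changes differed (0.83 ± 0.18, adjusted p = 0.00627). TB spleen was above normal spleen by 2.25 ± 0.16 in Treg (adjusted p = 6.71e-06), against -0.25 ± 0.13 in Tconv. It was the 1 member with a different TB-against-normal change in the cell types (2.50 ± 0.21, adjusted p = 9.82e-05), out of 39 tested (2.56%). Of all tested genes 0.222% were called in that direction, 0.629% in the other, where no member was called, and 0.851% in all. Endothelium also expresses Epas1. In spleen, where Epas1 ran from 3.85 to 36.2 CPM, Cdh5 had 1 to 4 counts in Treg and 5 to 16 in Tconv. Its counts in tumour libraries are given above. The 7 endothelial genes, Cdh5 among them, summed to 198 and 202 CPM in TB spleen Treg and 221 and 231 in normal spleen Treg. Their sums were 106 and 128 CPM in tumour Treg. In Tconv they were 255 and 258 CPM in tumour, 273 and 310 in TB spleen and 329 and 325 in normal spleen. The part of endothelial RNA in the levels of Epas1 was not tested.

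Egln3, the prolyl hydroxylase that HIF itself induces (chromosome 12, 54178981 to 54203860), had 63.0 and 63.3 CPM in tumour Treg, against 16.9 and 15.7 in TB spleen Treg and 13.9 and 13.4 in normal spleen Treg. Tumour Tconv held 27.1 and 22.7 CPM, against 13.1 and 17.5 in TB spleen Tconv and 9.89 and 9.35 in normal spleen Tconv. Tumour libraries lay above spleen libraries in both cell types, and tumour Treg above all others. The change was 1.96 ± 0.12 in Treg (adjusted p = 1.08e-07) and 0.69 ± 0.13 in Tconv (adjusted p = 0.000814), and these differed by 1.26 ± 0.18 (adjusted p = 0.000409). Egln1, the main oxygen sensor, had 132 and 124 CPM in tumour Treg, against 121 and 110 in TB spleen Treg and 127 and 128 in normal spleen Treg. In Tconv it had 134 and 136 CPM in tumour, against 153 and 152 in TB spleen and 158 and 171 in normal spleen. It was lower in tumour Tconv by 0.18 ± 0.07 (adjusted p = 0.0423), a call lost without any library of the groups compared or either normal spleen Treg library (adjusted p = 0.0575 to 0.159) and with DESeq2 (adjusted p = 0.129), and its interaction (0.32 ± 0.09, adjusted p = 0.0258) was lost without 6 of the 12 libraries in turn. Egln2 had 80.8 and 72.2 CPM in tumour Treg, against 70.2 and 63.0 in TB spleen Treg and 70.0 and 63.8 in normal spleen Treg. The hydroxylase Egln2 in Tconv had 75.5 and 66.2 CPM in tumour, against 59.9 and 69.7 in TB spleen and 59.4 and 65.1 in normal spleen.

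Arnt, the shared partner of both alpha subunits, had 114 and 126 CPM in tumour Treg, against 126 and 117 in TB spleen Treg and 110.5 and 113 in normal spleen Treg. Tconv held 115 and 113 CPM in tumour, against 112 and 115 in TB spleen and 122 and 113 in normal spleen. The groups overlapped, and the 95% interval of the tumour change was -0.19 to 0.14 in Treg and -0.16 to 0.18 in Tconv. Vhl, which encodes the von Hippel-Lindau protein, had 44.1 and 35.5 CPM in tumour Treg, against 39.7 and 37.7 in TB spleen Treg and 40.04 and 41.0 in normal spleen Treg. In Tconv Vhl was 32.1 and 32.4 CPM in tumour, against 38.5 and 37.5 in TB spleen and 39.4 and 39.5 in normal spleen. It was called higher in Treg than in Tconv in the tumour, and not in either spleen. The tumour change of Vhl in Tconv was -0.23 ± 0.09 and was not called (adjusted p = 0.057), though it was without either tumour Treg library (adjusted p = 0.0111) and under library-size scaling (-0.34, adjusted p = 0.00892).

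Among the hypoxia-responsive genes, 7 of 9 were higher and none lower in tumour Treg, where 32.8% and 28.7% of all tested genes were. In tumour Tconv 4 of 9 were higher and 1 lower, where 26.4% and 22.8% of all tested genes were. Ndrg1, a stress gene that HIF induces (chromosome 15, 66929318 to 66969640), had 357 and 344 CPM in tumour Treg, against 34.2 and 36.8 in TB spleen Treg and 39.6 and 40.5 in normal spleen Treg. Tumour Tconv held 68.5 and 71.0 CPM, against 23.0 and 22.1 in TB spleen Tconv and 27.5 and 26.9 in normal spleen Tconv. Both tumour groups were above all spleen libraries, and tumour Treg far above tumour Tconv. The change was 3.30 ± 0.07 in Treg, a 9.87-fold rise (adjusted p = 2.08e-11), and 1.63 ± 0.07 in Tconv, 3.09-fold (adjusted p = 3.34e-09), with a difference of 1.68 ± 0.09 (adjusted p = 6.97e-07). Tumour Treg exceeded tumour Tconv by 2.33 ± 0.06 in Ndrg1. The epithelial sums were also higher in tumour Treg than in tumour Tconv, with 2 of 11 tested genes higher and 1 lower. They were higher in Treg in spleen too (26.7 and 27.1 CPM in TB spleen Treg, with 4.74 and 5.03 in TB spleen Tconv). The dendritic sums were 39.4 and 36.1 CPM in tumour Treg and 10.9 and 18.4 CPM in tumour Tconv, with 2 of 5 tested genes higher and 1 lower. Of all tested genes, 27.2% were higher and 26.7% lower in tumour Treg than in tumour Tconv. The sums of fibroblasts and macrophages overlapped. The part of these cell types in the result was not tested.

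Ddit4, which encodes the stress protein REDD1 that restrains mTORC1 (chromosome 10, 59949669 to 59951834), separated the cell types in the tumour. It had 390 and 330 CPM in tumour Treg, against 277 and 388 in TB spleen Treg and 275 and 365 in normal spleen Treg. Tumour Tconv held 63.0 and 46.0 CPM, against 353 and 446 in TB spleen Tconv and 240 and 402 in normal spleen Tconv. The 2 tumour Tconv libraries were below the other 10, which overlapped. The change was 0.11 ± 0.24 in Treg (95% interval -0.46 to 0.69, not called) and -2.88 ± 0.26 in Tconv (adjusted p = 3.10e-06), and these differed by 2.99 ± 0.35 (adjusted p = 0.000101).

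Ero1l, an oxidase of protein folding, had 81.7 and 81.6 CPM in tumour Treg, against 39.1 and 42.2 in TB spleen Treg and 36.5 and 39.2 in normal spleen Treg. In Tconv it had 52.6 and 53.3 CPM in tumour, against 47.4 and 54.0 in TB spleen and 46.1 and 49.1 in normal spleen. Tumour Treg lay above all other libraries and the Tconv groups overlapped. It rose by 1.01 ± 0.08 in Treg (adjusted p = 6.01e-07), changed by 0.06 ± 0.08 in Tconv, and differed by 0.94 ± 0.11 (adjusted p = 0.000117). Bnip3, a mitophagy receptor, had 8.38 and 11.1 CPM in tumour Treg, against 4.91 and 4.74 in TB spleen Treg and 3.85 and 3.78 in normal spleen Treg. Tconv held 3.72 and 6.85 CPM of Bnip3 in tumour, against 5.00 and 3.50 in TB spleen and 2.80 and 3.39 in normal spleen. Its rise of 1.02 ± 0.27 in Treg was not called without tumour Treg 2 (0.80, adjusted p = 0.0527), and the change in Tconv was called without tumour Tconv 1 (0.71, adjusted p = 0.0286).

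Vegfa, the angiogenic growth factor (chromosome 17, 46016993 to 46032369), had 8.33 and 11.6 CPM in tumour Treg (192 and 265 counts), against 0.245 and 0.339 in TB spleen Treg and 0.0837 and 0.134 in normal spleen Treg. Tumour Tconv held 12.8 and 24.9 CPM (227 and 550 counts), against 0.573 and 0.628 in TB spleen Tconv and 0.459 and 0.668 in normal spleen Tconv. The spleen libraries had 2 to 14 counts each, below every tumour library. The change was 5.07 ± 0.41 in Treg and 4.96 ± 0.37 in Tconv. Tumour Tconv 2, the library with the highest Vegfa, also had the highest fibroblast and macrophage sums (736 and 490.5 CPM), and tumour Tconv 1 had the lowest of the tumour libraries (291 and 197 CPM); their part in the result was not tested. The lower level in tumour Treg than in tumour Tconv (-0.93 ± 0.27, adjusted p = 0.012) was not called without tumour Treg 1 (adjusted p = 0.116) or tumour Tconv 2 (-0.37, adjusted p = 0.178). P4ha2, a collagen prolyl hydroxylase that fibroblasts also make, had 1.78 and 2.54 CPM in tumour Treg (41 and 58 counts), against 0.0409 and 0.254 in TB spleen Treg (1 and 6 counts) and 1 and 0 counts in normal spleen Treg. Tumour Tconv held 1.52 and 3.22 CPM (27 and 71 counts), against 0.469 and 0.853 in TB spleen Tconv and 0.968 and 0.811 in normal spleen Tconv. It was higher in tumour by 3.83 ± 0.66 in Treg and by 1.83 ± 0.54 in Tconv, the second not called without tumour Tconv 2 (1.17, adjusted p = 0.113) or TB spleen Tconv 1 (1.48, adjusted p = 0.106).

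P4ha1, its paralog (75.3 to 170 CPM), was higher by 0.63 ± 0.11 in tumour Tconv (adjusted p = 0.000411) and by 0.29 ± 0.10 in tumour Treg, where the call was lost without tumour Treg 2 (0.11, adjusted p = 0.348), TB spleen Treg 1 (adjusted p = 0.133), TB spleen Treg 2 (adjusted p = 0.0791) or normal spleen Tconv 2 (adjusted p = 0.0594), and with library-size scaling (0.12, adjusted p = 0.331). Bnip3l (174 to 215 CPM), a relative of Bnip3, was higher by 0.18 ± 0.07 in tumour Treg (adjusted p = 0.0431), a call lost without any of 9 of the 12 libraries and with library-size scaling (0.02, adjusted p = 0.821). Ankrd37 (2.21 to 3.80 CPM), an ankyrin repeat gene that HIF-1 induces, was called in neither tumour comparison. Levels of Ankrd37 are uncertain where strand was not used in counting, since 26.4% of its exonic bases lie opposite other genes.

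Treg and Tconv were also compared at each site, in libraries that the 3 comparisons do not share. In tumour 19 members were higher and 6 lower in Treg than in Tconv (48.7% and 15.4%, background 27.2% and 26.7%, 53.9% in all). In TB spleen the numbers were 10 and 8 (25.6% and 20.5%, background 21% and 19.4%, 40.3% in all), and in normal spleen 12 and 10 (30.8% and 25.6%, background 21.8% and 18.7%, 40.6% in all). At all 3 sites 8 members were higher in Treg (20.5%, against 12.9% of all tested genes): Slc2a3, Slc16a3, Aldoc, Tpi1, Eno2, Hif1a, Ndrg1 and P4ha1. At all 3 sites 3 were lower (7.69%, against 11%): Slc16a1, Pfkfb4 and Pdk1. Ndrg1 was above Tconv by 2.33 ± 0.06 in tumour, 0.65 ± 0.07 in TB spleen and 0.56 ± 0.07 in normal spleen, and Eno2 by 1.83 ± 0.28, 2.21 ± 0.29 and 1.91 ± 0.32. Tpi1 was above by 1.14 ± 0.09, 0.89 ± 0.09 and 0.66 ± 0.09, and Pfkfb4 changed by -1.31 ± 0.15, -0.70 ± 0.14 and -0.71 ± 0.14. The call of P4ha1 in tumour (0.29 ± 0.11) was lost without tumour Treg 2 (0.12, adjusted p = 0.353), tumour Tconv 1 (0.16, adjusted p = 0.29) or normal spleen Tconv 2 (adjusted p = 0.0554). Ldha was lower in Treg by -0.29 ± 0.07 in TB spleen and -0.24 ± 0.07 in normal spleen, the second not called without normal spleen Treg 1 (adjusted p = 0.113) or normal spleen Tconv 2 (adjusted p = 0.11), and it was 0.06 ± 0.07 in tumour. Of the 39 tested members, 20 had their highest group mean in tumour Treg (51.3%, against 29% of all tested genes) and 6 in TB spleen Treg (15.4%, against 11.4%). Tumour Tconv had 4 (10.3%, against 18%) and TB spleen Tconv 4 (10.3%, against 10.5%). Normal spleen Treg had 2 (5.13%, against 10.3%) and normal spleen Tconv 3 (7.69%, against 20.9%).

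Between the spleens of TB and normal mice few members changed. In Treg 4 were higher and 1 lower (10.3% and 2.56%, background 6.8% and 8.5%, 15.3% in all): Slc16a3 by 1.33 ± 0.15, Eno2 by 1.17 ± 0.26, Hif1a by 0.91 ± 0.09 and Epas1 by 2.25 ± 0.16, and Ldha by -0.32 ± 0.07. The call of Eno2 was lost without TB spleen Treg 1 (adjusted p = 0.102) or normal spleen Treg 2 (adjusted p = 0.128), and that of Ldha without TB spleen Treg 2 (adjusted p = 0.0577) or normal spleen Treg 2 (adjusted p = 0.0889). In Tconv 3 were higher and 4 lower (7.69% and 10.3%, background 9.74% and 7.49%, 17.2% in all). The higher ones were Hif1a (0.77 ± 0.09), Slc2a3 (0.40 ± 0.07) and Egln3 (0.68 ± 0.14), and the lower ones Slc16a1 (-0.47 ± 0.13), Ldha (-0.27 ± 0.07), Ndrg1 (-0.27 ± 0.07) and P4ha1 (-0.36 ± 0.11). Of these 7, only Hif1a was called whichever library was left out; the others had an adjusted p of up to 0.067 (Slc2a3), 0.0696 (Egln3), 0.209 (Slc16a1), 0.163 (Ldha), 0.122 (Ndrg1) and 0.225 (P4ha1). With library-size scaling the share of called genes that were higher was 66.5% in Treg (44.4% with TMM) and 78.5% in Tconv (56.5% with TMM). With the replicate number of the sample descriptions as a block in the model, 3 members were higher and 0 lower in Treg (7.69% and 0%, background 3.06% and 2.99%). In Tconv 3 were higher and 1 lower (7.69% and 2.56%, background 5.69% and 3.11%). The call of Eno2 in Treg was among those lost (edgeR adjusted p = 0.103). The comparisons with tumour use the same TB spleen libraries, so a level specific to these libraries enters both.

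Other genes of the same pathways were described from lists put together for this purpose. Their counts stand against the shares of all tested genes called higher and lower, which were 32.8% and 28.7% for tumour Treg, and for tumour Tconv 26.4% and 22.8%. Of 29 tested HIF targets outside the set, 18 were higher and 6 lower in tumour Treg, with 17 and 3 in tumour Tconv. Lox and Stc1, which are among them, are known products of fibroblasts. Lox had 683 and 725 counts in tumour Treg, with 353 and 978 in tumour Tconv, against 0 to 3 in each spleen library. Stc1 had 449 and 621 counts in tumour Treg, with 229 and 875 in tumour Tconv, against 0 to 2. Adm, the vasodilator adrenomedullin, had 34 and 55 counts in tumour Treg, with 18 and 40 in tumour Tconv, against 0 to 2. The tumour Tconv libraries differed in these genes in the same order as in their fibroblast sums (291 and 736 CPM); the part of fibroblast RNA was not tested.

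Against these shares (32.8% and 28.7% in Treg, 26.4% and 22.8% in Tconv), of 10 other genes of the oxygen-sensing machinery 4 were higher and 3 lower in tumour Treg, with 2 and 2 in tumour Tconv. Hif3a, an alpha subunit that can act as an inhibitor, was lower by -0.70 ± 0.14 in Treg and -1.12 ± 0.17 in Tconv. Arnt2, a paralog of Arnt, was higher by 1.06 ± 0.17 in Treg, with 0.05 ± 0.25 in Tconv. The elongins Tceb1 and Tceb2, which work with the von Hippel-Lindau protein, rose by 0.61 ± 0.09 and 0.58 ± 0.10 in Treg. Of 13 genes that carry pyruvate into mitochondria or control that step, 3 were higher and 3 lower in Treg, and 2 and 0 in Tconv. Pdp1, the phosphatase that reverses the action of Pdk1, rose by 1.18 ± 0.12 in Treg and 0.63 ± 0.13 in Tconv, and the kinase Pdk2 fell in Treg (-1.16 ± 0.13) with -0.11 ± 0.13 in Tconv. The kinase Pdk4 had 20 and 24 counts in tumour Treg, with 7 and 29 in tumour Tconv, against 0 or 1 in each spleen library. Mpc2, a subunit of the pyruvate carrier, was higher in Treg by 0.40 ± 0.10, not called without tumour Treg 1 (adjusted p = 0.0602), TB spleen Treg 2 (adjusted p = 0.052) or with library-size scaling (adjusted p = 0.0628).

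Against the same shares of all tested genes (32.8% and 28.7% in Treg, 26.4% and 22.8% in Tconv), of 8 pentose phosphate genes 3 were higher and 1 lower in tumour Treg, with 0 and 2 in tumour Tconv. Taldo1, Tkt and Pgd rose in Treg by 0.33 ± 0.07, 0.32 ± 0.08 and 0.30 ± 0.07, and H6pd fell in both (-0.41 ± 0.08 and -0.52 ± 0.08). Of 17 other tested glycolysis genes, 4 were higher and 3 lower in Treg, and 2 and 1 in Tconv, among them the transporter Slc2a8 (1.20 ± 0.24 in Treg) and the muscle enolase Eno3 (-0.84 ± 0.18 in Treg). Gapdhs, the sperm form of Gapdh, fell in Treg (-1.43 ± 0.41; without tumour Treg 2 -1.15, adjusted p = 0.0772), and Ldhd was higher there (1.01 ± 0.30; without tumour Treg 1 0.82, adjusted p = 0.0856; without TB spleen Treg 2 0.80, adjusted p = 0.095). Of 21 regulators of glucose use, 4 were higher and 11 lower in Treg, and 6 and 8 in Tconv. Txnip, which restrains glucose uptake, fell by 1.49 ± 0.11 in Treg and by 0.35 ± 0.11 in Tconv, the second not called without tumour Tconv 2 (-0.24, adjusted p = 0.112) or TB spleen Tconv 2 (-0.27, adjusted p = 0.141). Rheb, the activator of mTORC1, rose by 1.01 ± 0.07 in Treg and 0.48 ± 0.08 in Tconv. The sestrins, which restrain mTORC1, split: Sesn1 fell by 0.77 ± 0.12 in Treg and 1.37 ± 0.12 in Tconv, and Sesn2 rose by 1.92 ± 0.13 in Tconv and by 0.39 ± 0.12 in Treg, the last not called without tumour Treg 2 (adjusted p = 0.0573) or TB spleen Treg 2 (adjusted p = 0.0907), or with library-size scaling (0.23, adjusted p = 0.112).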

How the data were processed

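Per the labels' protocols, single cells were prepared from tumour and spleen, untouched CD4+ cells were isolated and split by GFP in a sorter, and stranded mRNA libraries sequenced on a NextSeq500. The submitters' processing notes name STAR, featureCounts and mm10 without versions; strand and multimapping settings are not given in the sources used here. The authors deposited whole-number read counts per gene, not normalized. Levels are CPM computed here with TMM-scaled library sizes; CPM per kb divides them by the union of exons in GENCODE annotation of the same assembly.

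Counts were tested with edgeR 4.0.16 (R 4.3.3): filterByExpr, TMM, 1 quasi-likelihood model of 12 libraries and 6 group means (6 residual degrees of freedom), 7 comparisons of 2 groups and 2 interactions, two-sided, Benjamini-Hochberg over 13509 genes, threshold 0.05. The SE is the log2 fold change divided by the square root of F. The procedure was tested on simulated data. Replicates of a group differed by more than counting noise (chi-square per gene of 3.45 to 16.4) and were each counted as 1 sample; this does not show that they are separate animals. Alternatives were DESeq2 1.42.0, its size factors, library-size scaling, no filter, fits to just the groups in question, blocks by replicate number and leaving out each library.

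The members and lists were chosen with earlier results of these data known. All 40 members are accounted for: values per library are given for members called with a log2 change of at least 1 in a tumour comparison, members called in the site interaction and 13 central genes, and up to 4 called genes are named per pathway list.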

Additional observations from a re-analysis of the deposited data

Results flagged for a closer look

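In 14 members the change from TB spleen to tumour differed between Treg and Tconv by edgeR's test of the interaction (Treg change minus Tconv change). The interaction was positive for Ddit4 (2.99), Ndrg1 (1.68), Egln3 (1.26), Pgk1 (1.07) and Ero1l (0.94). It was also positive for Epas1 (0.83), Aldoa (0.48), Ldha (0.35), Egln1 (0.32) and Pkm (0.27). Of these, Ddit4 and Egln1 were called lower in tumour Tconv and were not called in tumour Treg. The interaction was negative for Hk2 (-2.01), Ldhb (-0.86), Hif1a (-0.83) and Pdk1 (-0.56). The calls of Aldoa, Pgk1, Pkm, Ldha and Egln1 were lost when certain libraries were left out, and that of Pgk1 also rests on a transcript shared with pseudogenes. Epas1 alone among the members changed differently between TB and normal spleens, by 2.50 more in Treg than in Tconv.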

How the results depend on the processing

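Of 24062 genes, 13509 had enough counts to test, and depth limits members of few counts such as P4ha2 and Gapdh. With 2 libraries a group the spread is borrowed across genes and groups. With library-size scaling, 8 members were lower in tumour Treg (20.5%, against 39% of all genes), 11 in tumour Tconv (28.2%, against 32.3%) and 0 in TB against normal spleen Tconv (against 3.57%), and Pfkp in tumour Treg turned to -0.16 (adjusted p = 0.0466). With only the libraries compared, 3 were lower in tumour Tconv (7.69%, against 14.1% of all genes). In that setting 5 were lower in TB against normal spleen Treg (12.8%, against 16%) and 5 higher under the site interaction (12.8%, against 7.03%). The causes were not tested. The labels do not say that replicate numbers mark pairs, and titles and descriptions number the normal mice differently. The correlation of same-numbered deviations was 0.264 and 0.182 between Treg and Tconv of the TB and the normal spleen, and -0.064 to 0.059 in the other 5 comparisons. These used the numbers of the titles, and they do not decide whether Treg and Tconv of a spleen were paired. The main model assumed no pairing. A replicate block by title number left 21 members higher and 5 lower in tumour Treg (53.8% and 12.8%, against 32.8% and 28.5% of all genes). A block by description number gave 0 lower in TB against normal spleen Treg and 1 in Tconv, with 414 and 404 genes of all called higher and lower in Treg, against 918 and 1148 without it, and 769 and 420 in Tconv, against 1316 and 1012. Leaving out 1 library gave 17 to 21 members higher and 4 to 5 lower in tumour Treg, 12 to 16 and 3 to 7 in tumour Tconv, 15 to 19 and 4 to 6 in tumour Treg against tumour Tconv, 10 to 12 and 5 to 8 in TB spleen, 10 to 12 and 6 to 10 in normal spleen, 3 to 5 and 0 to 2 in TB against normal Treg, 1 to 3 and 0 to 5 in Tconv, and 5 to 11 and 4 to 6 under the site interaction; no direction reversed. A group left with 1 library was assumed to vary like the others. The number of all tested genes called also changed between the fits that left out 1 library. These member counts alone therefore do not tell a change in the members from a change in all genes.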

Other observations

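Ddit4 also answers to glucocorticoids, and 8 other glucocorticoid-responsive genes were looked at beside it. In tumour against TB spleen, 6 were higher and none lower in Treg by edgeR's test, and 4 were higher and 2 lower in Tconv. Of all tested genes, 32.8% were higher and 28.7% lower in Treg, and 26.4% and 22.8% in Tconv. Sgk1, a kinase of ion transport and T cell differentiation, had 4275 and 4392 counts in tumour Treg, against 544 and 545 in TB spleen Treg (change 3.06 ± 0.17), and 2652 and 4970 in tumour Tconv, against 1968 and 1972 in TB spleen Tconv (0.98 ± 0.16). The phosphatase gene Dusp1 rose by 2.13 ± 0.36 in Treg and 2.77 ± 0.38 in Tconv, and the clock gene Per1 by 1.39 ± 0.11 and 2.19 ± 0.11. Zbtb16, the transcription factor PLZF, fell in Tconv (-2.75 ± 0.37), with 34 and 56 counts in tumour Tconv, against 203 and 435 in TB spleen Tconv; it was higher in Treg by 1.73 ± 0.54, not called without tumour Treg 2 (1.26, adjusted p = 0.116) or TB spleen Treg 1 (1.26, adjusted p = 0.113).

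Between TB and normal spleens 5 of the 8 were higher in Treg and 5 of 8 in Tconv, and none was lower in either by edgeR's test. Of all tested genes, 6.8% were higher and 8.5% lower in Treg, and 9.74% and 7.49% in Tconv. Dusp1 had 7403 and 3826 counts in TB spleen Treg, against 1228 and 1667 in normal spleen Treg, and 2509 and 1106 in TB spleen Tconv, against 344 and 347 in normal spleen Tconv.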
